A study of Mus musculus with 12 samples.

Results

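A set of 10 genes of the insulin-like growth factor (IGF) axis was followed in injured mouse brain: the long noncoding RNA H19, the ligands Igf1 and Igf2, the receptors Igf1r and Igf2r, and the binding proteins Igfbp2, Igfbp3, Igfbp4, Igfbp5 and Igfbp7. The 10 symbols were matched to mouse Ensembl identifiers, and all 10 were found among the 55638 identifiers that the count tables hold between them. They were selected on their measured differences between TBI and sham and between zileuton and vehicle, so their differences are given as a description. Where they are said to be called, that states only that they passed the threshold of the test over all genes, and it is no evidence for the difference.

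Messenger RNA of brain tissue was sequenced from 12 adult male C57BL/6J mice, all wild type, in 4 groups of 3 libraries. In the batch of 2018, sham mice had the surgery but no impact, and TBI mice received a controlled cortical impact and were sampled at 7 days. In the batch of 2022, all 6 mice had the same impact and were sampled at 7 days by their library names. Of these, 3 received zileuton, an inhibitor of 5-lipoxygenase, by intraperitoneal injection in corn oil at 10 mg/kg per day after TBI. The other 3 are labelled only as TBI and were taken as the vehicle group, since the study's text sets vehicle-treated against zileuton-treated mice for this sequencing. The source labels give 7, 8 and 9 days for the zileuton libraries, and no day for the sham libraries, for which the study's text gives the same 7 days. The tissue is called brain in the labels and pericontusional tissue in the study's text, so it is a mixture of cell types. Nothing in the labels says more than that the libraries are separate, so the spread between them may be partly technical. Library numbers of the 2018 batch are those of the labels. The 2022 columns carry other numbers than the labels, and their libraries are called A, B and C here.

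IGF1 and IGF2 are secreted peptides that signal through the IGF1 receptor, a tyrosine kinase that drives growth and survival pathways. The IGF2 receptor, also the mannose 6-phosphate receptor, carries IGF2 to lysosomes for degradation. The IGF binding proteins hold the ligands in the extracellular fluid and hand them over or keep them from the receptor, and IGFBP7 binds IGF1 and IGF2 only weakly. H19 lies next to Igf2 in an imprinted domain in which H19 is transcribed from the maternal and Igf2 from the paternal allele, and its transcript is the precursor of a microRNA, miR-675. In the injured brain, microglia and macrophages are a known source of IGF1, the choroid plexus and meninges of IGF2, and both astrocytes and choroid plexus of IGFBP2.

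H19, Igf2 and Igf1r lie on chromosome 7, Igfbp2 and Igfbp5 on chromosome 1, Igfbp3 and Igfbp4 on chromosome 11, Igf1 on chromosome 10, Igf2r on chromosome 17 and Igfbp7 on chromosome 5. In the GENCODE M21 annotation of GRCm38 no gene lies between Igfbp2 and Igfbp5, which point at each other, and 1 gene model, Gm33148, lies between H19 and Igf2. Igf2 overlaps the coding gene model Gm49394 on its own strand and Igf2os on the other, and Igf2r overlaps the antisense RNA Airn. H19, Igf1 and Igfbp7 also have overlapping genes on the other strand (Gm27483 and Gm27786 for H19, Igf1os for Igf1, and Polr2b with Gm34648 for Igfbp7). Whether counting used the strand is not given in the sources used here, so reads of the pairs on opposite strands cannot be told apart. Igf2 and Gm49394 share a strand, so strand would not separate their reads in either case. The miRNAs of Mir675 and Mir483 are shown because these genes lie within the bounds of H19 and Igf2. The mature sequences are from RefSeq on GRCm38.p6, minus strand, with the seed (bases 2 to 8) in capitals, and lie at chr7:142577112-142577133 (miR-675-5p), chr7:142577078-142577099 (miR-675-3p), chr7:142654968-142654989 (miR-483-5p) and chr7:142654932-142654952 (miR-483-3p).
miR-675-5p: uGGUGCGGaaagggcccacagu
miR-675-3p: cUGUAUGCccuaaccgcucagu
miR-483-5p: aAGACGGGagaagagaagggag
miR-483-3p: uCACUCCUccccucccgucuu
The 4 seeds differ, and each is held by 1 mature miRNA of the RefSeq table. Poly(A)-selected libraries do not measure the mature forms. The genes Mir675 and Mir483 were listed at 0 counts in all 6 libraries of 2022 and had no entry among the gene identifiers of 2018.

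Promoter sequence is shown for the 4 coding genes that were higher in every TBI library and called in the whole-table test: Igf1, Igfbp2, Igfbp5 and Igfbp7. Each runs 5′ to 3′ on the gene's strand from 250 bases before a RefSeq start to 50 after it (GRCm38.p6), and 9 of the 10 genes had an entry. Igf1 is at chr10:87860861-87861160 (plus strand), the first of 2 Igfbp2 entries at chr1:72824230-72824529 (plus), Igfbp5 at chr1:72874816-72875115 (minus) and Igfbp7 at chr5:77407996-77408295 (minus). Capitals mark matches, on either strand, to TATAAA (the TATA box), GGGCGG (the GC box), CCAAT (the CCAAT box) or CACGTG (an E-box).
Igf1: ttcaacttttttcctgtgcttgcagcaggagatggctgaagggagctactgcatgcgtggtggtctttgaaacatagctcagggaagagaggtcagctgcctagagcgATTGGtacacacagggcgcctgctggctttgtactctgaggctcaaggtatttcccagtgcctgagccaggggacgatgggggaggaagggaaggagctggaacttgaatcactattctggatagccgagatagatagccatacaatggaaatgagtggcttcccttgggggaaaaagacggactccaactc
Igfbp2: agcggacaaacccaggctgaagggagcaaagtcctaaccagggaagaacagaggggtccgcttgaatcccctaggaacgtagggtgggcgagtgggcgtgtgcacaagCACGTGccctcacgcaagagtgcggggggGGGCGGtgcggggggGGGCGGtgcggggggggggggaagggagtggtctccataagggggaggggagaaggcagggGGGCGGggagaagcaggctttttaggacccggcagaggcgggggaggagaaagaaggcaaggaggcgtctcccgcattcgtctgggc
Igfbp5: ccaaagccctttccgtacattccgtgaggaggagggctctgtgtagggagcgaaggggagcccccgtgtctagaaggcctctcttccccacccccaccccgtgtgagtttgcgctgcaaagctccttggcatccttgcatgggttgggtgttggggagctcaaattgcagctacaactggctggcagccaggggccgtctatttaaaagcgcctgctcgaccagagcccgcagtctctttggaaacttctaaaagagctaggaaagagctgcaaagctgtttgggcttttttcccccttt
Igfbp7: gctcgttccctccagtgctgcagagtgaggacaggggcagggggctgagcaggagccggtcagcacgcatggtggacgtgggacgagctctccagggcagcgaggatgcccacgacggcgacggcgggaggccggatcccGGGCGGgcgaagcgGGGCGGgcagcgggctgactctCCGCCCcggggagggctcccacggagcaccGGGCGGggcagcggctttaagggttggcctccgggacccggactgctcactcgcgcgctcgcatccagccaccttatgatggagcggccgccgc
The Igf1 window held 1 CCAAT box, on the reverse strand, and the Igfbp2 window 3 GC boxes and 1 E-box. The Igfbp7 window held 4 GC boxes, and the Igfbp5 window none of the 4 motifs. Of the 32851 promoters in the table, 37.4% held a CCAAT box, 35.7% a GC box, 13.6% a TATA box and 7.15% this E-box, and no motif was found in all 4 windows. GC content ranged from 52.3% (Igf1) to 73.3% (Igfbp7).

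Libraries held 42929862 to 48684674 counts in 2018 and 27845562 to 35453257 in 2022. All marker lists of brain cell types had signal in every group, and Gfap, the astrocyte filament, was at 142 to 221 CPM (counts scaled to library size) in sham, 2241 to 2616 in TBI, and 2332 to 3830 in the 2022 batch. Libraries stood apart in choroid plexus transcripts: the summed CPM of 10 markers was 1750, 259 and 316 in sham libraries 1, 2 and 3, but 1809 to 2067 in TBI. In 2022 it was 197, 903 and 1771 in vehicle A, B and C, and 2280, 2112 and 303 in zileuton A, B and C. Differences are therefore also given without sham 2 and 3, or without vehicle A and zileuton C, where that matters. The former leaves 1 sham library, which is then assumed to vary like the TBI libraries, so such values are given as fold changes with their SE and lost calls are not read. In TBI against sham, genes were called higher for 9 of 9 activated microglia and macrophage markers, 8 of 8 homeostatic microglia, 6 of 7 astrocyte, 6 of 8 endothelial, 5 of 7 oligodendrocyte, 5 of 10 fibroblast and meninges, 3 of 8 mural cell and 1 of 10 choroid plexus markers. Called lower were 4 of 8 neuronal markers, 3 of 6 adult red blood cell genes and 2 of 4 tested embryonic genes, the embryonic globins Hba-x and Hbb-y. Over all genes tested, 16.8% were called higher and 11.2% lower. Hbb-y had 70, 183 and 138 counts in sham 1, 2 and 3 and 2, 6 and 0 in TBI 1, 2 and 3, which is unusual for adult brain. Whether the sham tissue is what its label says was not tested, and this bears on every difference between TBI and sham given here. Between zileuton and vehicle 0 genes of any of these lists were called by edgeR at an adjusted p of 0.05, and 10 of the genes had an unadjusted p under 0.05. These were 4 of 5 tested red blood cell genes, 2 of 10 fibroblast and meninges, 2 of 8 endothelial, 1 of 9 activated microglia and macrophage and 1 of 7 astrocyte markers. Over all genes the share was 6.83%. In bulk tissue, fewer cells of a type and less RNA per cell cannot be told apart.

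Levels were compared between genes only per transcript length, as FPKM (fragments per kilobase, scaled to sequencing depth) in 2018 and TPM (transcript shares scaled to a common total) in 2022. In sham brain the binding proteins led: Igfbp2 at 26.6 ± 6.51 FPKM (mean ± SD, n = 3), Igfbp5 at 26.6 ± 1.16, Igfbp4 at 20.2 ± 3.50 and Igfbp7 at 16.6 ± 1.76. Igf2r followed at 4.64 ± 0.223, Igf1r at 3.62 ± 0.265, Igfbp3 at 3.35 ± 0.520 and H19 at 2.71 ± 0.547 FPKM. By FPKM the ligands were lowest, Igf1 at 1.12 ± 0.0892 and Igf2 at 0.287 ± 0.0930. Among neighbours in this order, the libraries of Igfbp2 and Igfbp5, Igfbp4 and Igfbp7, Igf1r and Igfbp3, and Igfbp3 and H19 overlapped. In TBI brain Igfbp5 led at 85.0 ± 22.3 FPKM, with Igfbp2 at 68.8 ± 41.3 and Igfbp7 at 43.2 ± 5.09, whereas Igfbp4 ranged from 16.6 to 27.3. H19 came next at 12.5 ± 8.77, from 4.48 to 21.9 FPKM, a range that reached those of Igfbp4 above and Igf2r below. Only the steps from Igfbp7 to Igfbp4 and from Igf1r to Igf2 were free of overlap in TBI. The 5 binding proteins together came to 101, 89.0 and 89.8 FPKM in sham 1, 2 and 3 and to 207, 214 and 249 in TBI 1, 2 and 3. Igf1 and Igf2 together came to 1.27 to 1.49 FPKM in sham and 2.94 to 5.85 in TBI, and were thus under the binding protein sum in each of these 6 libraries. In 2022 the ligands came to 69.9 to 165 TPM and the binding proteins to 310 to 512 TPM, a smaller gap, with Igf2 far higher among the 10 genes than in 2018. Igf1 also stood higher, at rank 6 with vehicle against rank 8 in TBI of 2018, though its mean CPM was lower (27.6 against 36.9). Igf1r was at rank 9 in both, with 63.9 and 58.2 CPM. Ranks and gaps per length thus also depend on the transcript lengths used in each batch, which are not given in the sources used here. They describe each batch only.

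**Figure D1:**
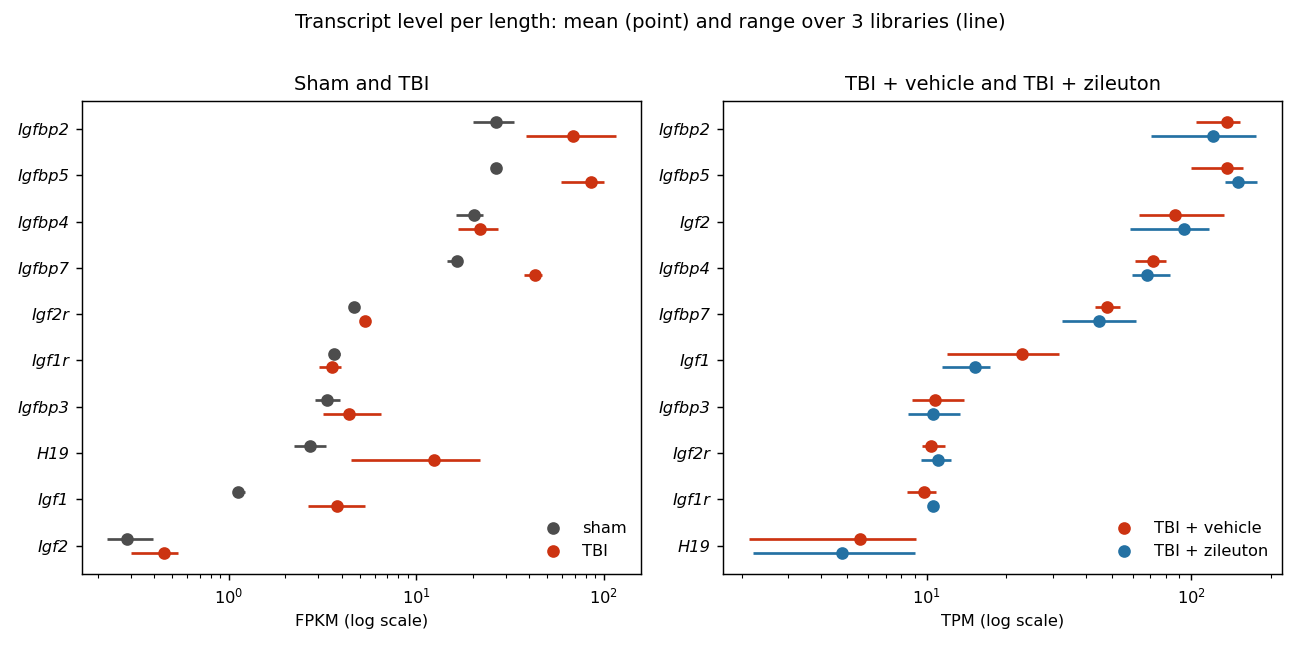
Level per transcript length of the 10 genes on a log scale, FPKM for sham and TBI (left) and TPM for TBI with vehicle or zileuton (right). Points are means and lines the range of 3 libraries, and genes are ordered by the mean of the first group. Igf2 is last at 0.287 FPKM in sham and at rank 3 with 86.8 TPM with vehicle.

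In the 2022 batch the order was partly the same. With vehicle, Igfbp2 was at 136 ± 28.2 and Igfbp5 at 136 ± 31.3 TPM, followed by Igf2 at 86.8 ± 40.0, Igfbp4 at 71.8 ± 9.45 and Igfbp7 at 48.1 ± 5.51. Igf1 was at 22.9 ± 10.1 TPM, Igfbp3 at 10.7 ± 2.72, Igf2r at 10.3 ± 1.22, Igf1r at 9.77 ± 1.25 and H19 at 5.59 ± 3.50. With zileuton, Igfbp5 was at 150 ± 23.9, Igfbp2 at 121 ± 53.2, Igf2 at 93.5 ± 31.0 and H19 again lowest at 4.79 ± 3.69 TPM. The ranges of neighbours overlapped at all steps but that from Igfbp7 to Igf1 in both groups and that from Igfbp4 to Igfbp7 with vehicle. Tables of the batches were made separately, so no level of one is tested against the other.

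The comparison of TBI with sham asked which transcripts differ around the contusion at 7 days. H19, Igf1, Igfbp2, Igfbp5 and Igfbp7 were higher in all 3 TBI libraries than in any sham library and were called at an adjusted p under 0.05 in edgeR's quasi-likelihood test over 19536 genes. In that test 28% of all genes were called, 16.8% as higher, and 39.6% had an unadjusted p under 0.05, beside 5 of the 10 under each rule. Groups did not overlap for 44.4% of all genes, 24.6% with TBI higher and 19.8% with TBI lower, beside 6 of the 10, all higher. Since the 10 genes were selected on this comparison, nothing is read from these shares. The other 5 genes, Igf2, both receptors, Igfbp3 and Igfbp4, were not called. The median log2 fold change was 0.96 over the 10 genes and 0.02 over all genes.

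**Figure D2:**
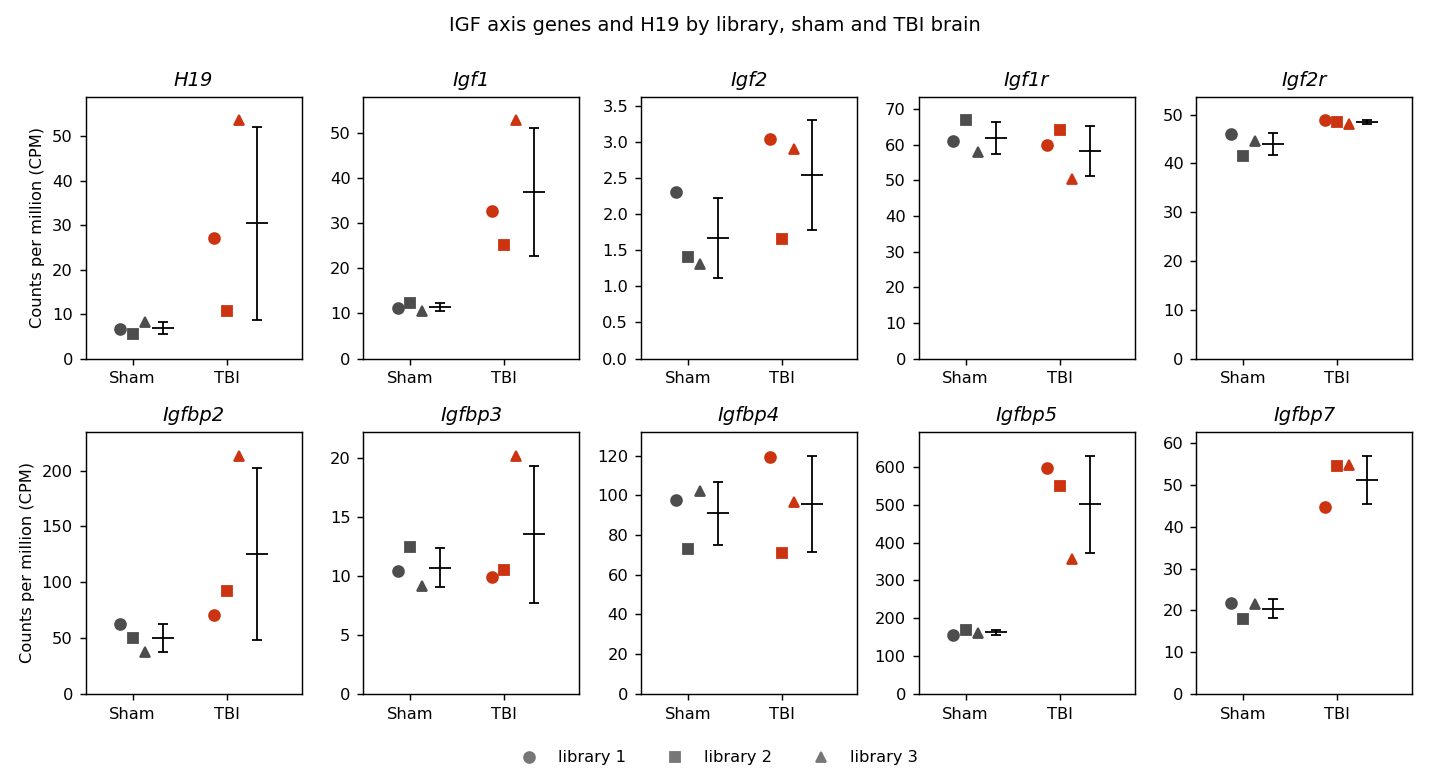
CPM of each gene in each library of the 2018 batch, sham in grey and TBI in red, with the symbol giving the library number and the bar the mean and SD of 3 libraries. Every axis starts at 0 and has its own scale. H19, Igf1, Igf2r, Igfbp2, Igfbp5 and Igfbp7 have no overlap between the groups, and TBI 3 is highest for H19 (53.6), Igf1 (52.7), Igfbp2 (213) and Igfbp3 (20.2).

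H19 had 6.59, 5.56 and 8.25 CPM in sham 1, 2 and 3 and 27.0, 10.6 and 53.6 in TBI 1, 2 and 3, from 257 to 392 and 517 to 2308 counts. All TBI libraries were above all sham libraries, but TBI 3 was 5.05 times as high as TBI 2, and the CV was 71.3% in TBI against 20% in sham. The log2 fold change was 2.16 (SE 0.48), and 1.47 without TBI 3. The summed CPM of 10 fibroblast and meninges markers, none at 0, followed the same order of TBI libraries, 487, 216 and 820, with 170 to 183 in sham. The collagens Col1a1, Col1a2 and Col3a1 led this sum in TBI, with means of 107, 129 and 140.5 CPM. Of the 10 markers, 9 were higher in TBI and 1, Slc22a6, was lower (log2 fold change -0.79). Slc6a13, Slc6a20a and Aldh1a2 differed little (0.11, 0.05 and 0.27). The part of these cells in the H19 difference was not tested.

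Igf1, the ligand of the IGF1 receptor, had 11.2, 12.3 and 10.6 CPM in sham 1, 2 and 3. It had 32.7, 25.2 and 52.7 CPM in TBI 1, 2 and 3, again with TBI 3 highest and no overlap. The means were 11.3 ± 0.893 and 36.9 ± 14.3 CPM (SD, n = 3) and the log2 fold change 1.70 (SE 0.24). The 9 markers of activated microglia and macrophages, none at 0, summed to 91.3, 87.3 and 74.4 CPM in sham 1, 2 and 3 and to 1239, 1279 and 2582 in TBI 1, 2 and 3, so TBI 3 was highest for both. Spp1 was the largest part of this sum in TBI, with a mean of 984 ± 613 CPM. Homeostatic microglia markers summed to 307 to 361 CPM in sham and 923 to 1293 in TBI. The part of these cells in the Igf1 difference was not tested.

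Igf2, the second ligand, was low in this batch, at 2.31, 1.41 and 1.30 CPM in sham 1, 2 and 3 and 3.05, 1.66 and 2.90 in TBI 1, 2 and 3. The groups overlapped, since TBI 2 lay below sham 1, and these values rest on 62 to 150 counts. The log2 fold change was 0.60 (SE 0.33). Sham 1, the sham library with the most choroid plexus transcripts, was also the highest of the sham libraries for Igf2. TBI 2, with the highest choroid plexus sum in TBI (2067 CPM), was the lowest of the TBI libraries for Igf2. Without sham 2 and 3 the log2 fold change was 0.10 (SE 0.43). The part of the choroid plexus was not tested.

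Neither receptor was called. Igf1r, which transmits the signal of both ligands, was at 61.1, 66.9 and 58.0 CPM in sham 1, 2 and 3 and at 59.9, 64.2 and 50.5 in TBI 1, 2 and 3, with overlapping groups and a log2 fold change of -0.09 (SE 0.10). Igf2r, the clearance receptor, was at 45.9, 41.5 and 44.7 CPM in sham and at 48.8, 48.5 and 48.1 in TBI. These groups did not overlap, but the log2 fold change was only 0.14 (SE 0.07), and 0.05 (SE 0.11) without sham 2 and 3. Its antisense neighbour Airn had 0.989 to 1.27 CPM in sham and 1.29 to 1.77 in TBI, a small amount beside Igf2r.

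Igfbp5 had the highest mean FPKM of the 10 genes in TBI. It had 157, 170 and 161 CPM in sham 1, 2 and 3 and 598, 549 and 356 in TBI 1, 2 and 3. TBI 3, which was highest for H19, Igf1 and Igfbp2, was lowest here. The means were 163 ± 6.51 and 501 ± 128 CPM and the log2 fold change 1.62 (SE 0.17). Igfbp7, a secreted protein of vessel walls, was at 21.8, 17.9 and 21.6 CPM in sham and 44.7, 54.5 and 54.7 in TBI. Its TBI libraries differed among themselves less than those of the other 4 called genes, with a highest value 1.22 times the lowest, and its log2 fold change was 1.33 (SE 0.12). Endothelial markers summed to 98.3 to 136 CPM in sham and 139 to 214 in TBI, and mural cell markers to 134 to 159 and 208 to 218, and their part in the Igfbp7 difference was not tested.

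Igfbp2, which binds IGF2 with high affinity, was at 62.8, 49.9 and 37.8 CPM in sham 1, 2 and 3. In TBI 1, 2 and 3 it was at 70.5, 92.3 and 213 CPM, so TBI 1 lay just above sham 1 and TBI 3 stood far from the others. The log2 fold change of 1.32 (SE 0.37) came down to 0.70 without TBI 3. It was not called without sham 1 (1.50), sham 2 (1.29) or sham 3 (1.13), at similar fold changes, and was 0.96 (SE 0.60) without sham 2 and 3, the sham libraries low in choroid plexus transcripts. Astrocyte markers summed to 3725 to 4163 CPM in sham and 7263 to 7603 in TBI, and their part in the Igfbp2 difference was not tested. Without sham 2 and 3 the log2 fold change was 2.17 (SE 0.86) for H19, 1.69 (SE 0.42) for Igf1, 1.65 (SE 0.32) for Igfbp5 and 1.21 (SE 0.17) for Igfbp7, close to the values with all libraries but with larger errors.

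Igfbp3, the main carrier of IGFs in blood, was at 10.5, 12.4 and 9.15 CPM in sham 1, 2 and 3 and at 9.90, 10.5 and 20.2 in TBI 1, 2 and 3. Only TBI 3 lay above the sham libraries, and the log2 fold change of 0.34 (SE 0.27) became -0.07 without it. Igfbp4, which holds back IGF action, was at 97.8, 72.8 and 102 CPM in sham and 119, 70.8 and 96.6 in TBI, with overlapping groups and a log2 fold change of 0.07 (SE 0.19).

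The comparison of zileuton with vehicle asked whether inhibition of 5-lipoxygenase after TBI goes with different transcript levels. Of the 10 genes, 0 were called by edgeR, 0 had an unadjusted p under 0.05, 0 were called by DESeq2, and 0 had groups without overlap. Over all 17363 genes tested, 0% were called, 6.83% had an unadjusted p under 0.05 and 13.6% had groups that did not overlap, 6.51% with zileuton higher and 7.04% with zileuton lower. Of the 10 fold changes, 4 were above 0 and 6 below, with a median log2 value of -0.13 against 0.00 over all genes. A missed threshold with 3 libraries a group does not show that the levels were equal.

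**Figure D3:**
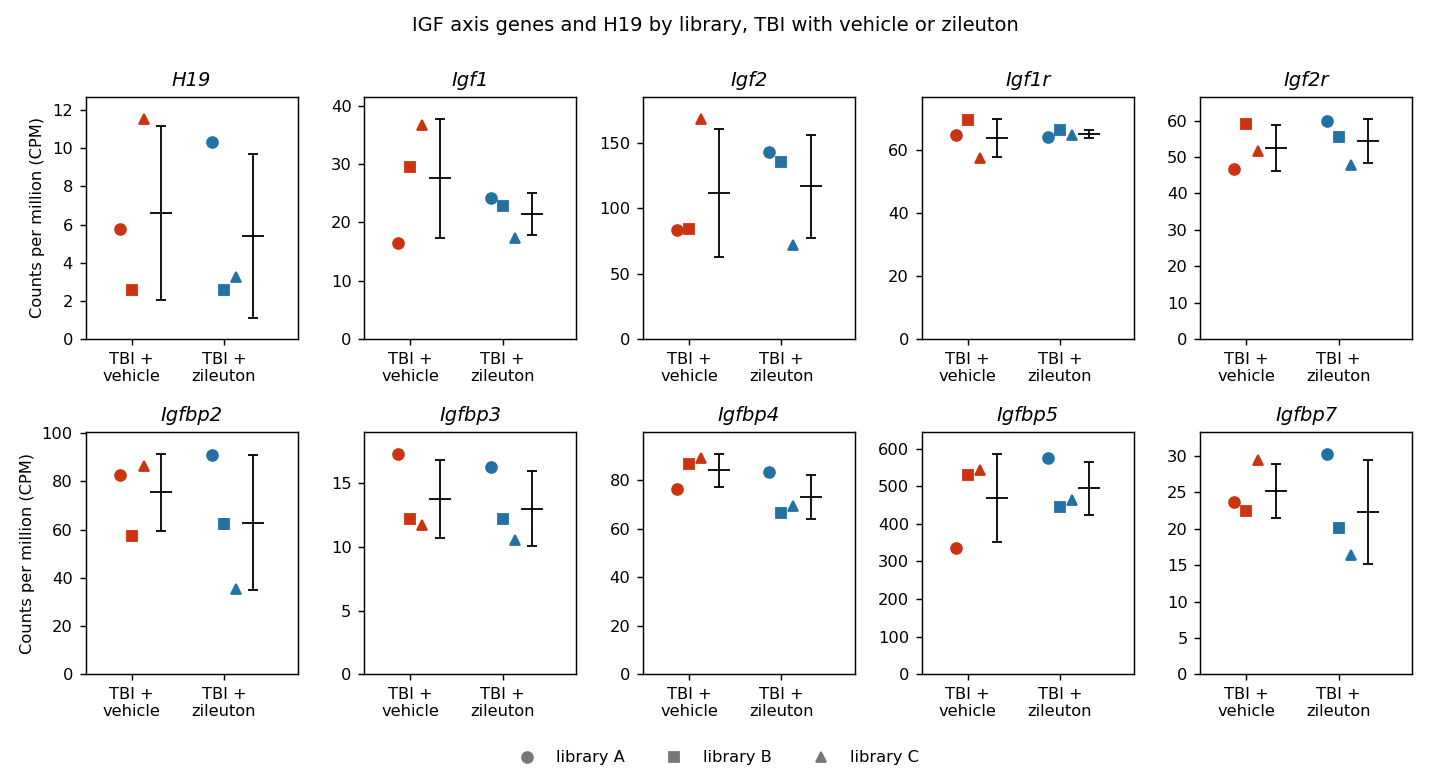
CPM of each gene in each library of the 2022 batch, TBI with vehicle in red and with zileuton in blue, with the symbol giving the library letter and the bar the mean and SD of 3 libraries. Every axis starts at 0 and has its own scale. The groups overlap for all 10 genes.

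H19 had 5.76, 2.55 and 11.6 CPM in vehicle A, B and C and 10.3, 2.58 and 3.28 in zileuton A, B and C. Vehicle C and zileuton A were high and the other 4 low, in both groups a wide spread, and the log2 fold change was -0.29 (SE 0.63), from -1.17 to 0.38 when single libraries were left out. Fibroblast and meninges markers were also highest in vehicle C and zileuton A, at 292 and 280 CPM in sum, with 212 and 191 in vehicle A and B and 165 and 127 in zileuton B and C. The part of these cells was not tested.

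Igf1 had 16.5, 29.5 and 36.7 CPM in vehicle A, B and C. With zileuton it had 24.1, 22.8 and 17.4 CPM, all within the range of the vehicle libraries. The log2 fold change was -0.36 (SE 0.27), from -0.62 to -0.10 when single libraries were left out. Activated microglia and macrophage markers summed to 1341, 2041 and 2788 CPM in vehicle A, B and C and to 1640, 1079 and 922 in zileuton A, B and C. In both groups together, vehicle B and C were the highest for Igf1 and for the sum of these markers. Spp1 was the largest part of the sum, with means of 1111 CPM with vehicle and 483 with zileuton (log2 fold change -1.20). The fold changes of the other markers were smaller, from -0.69 (Ms4a7) to -0.03 (Mrc1).

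Igf2 had 83.3, 84.1 and 168 CPM in vehicle A, B and C and 143, 135 and 71.7 in zileuton A, B and C, on 2058 to 4721 counts. The 3 libraries richest in choroid plexus transcripts, vehicle C, zileuton A and zileuton B, were also the 3 highest for Igf2. Vehicle A and B were alike for Igf2 at choroid plexus sums of 197 and 903 CPM. Fibroblast and meninges markers were highest in vehicle C and zileuton A, but lower in zileuton B (165) than in vehicle A (212) and B (191). The part of these cells was not tested. The log2 fold change was 0.06 (SE 0.33), and 0.14 (SE 0.28) without vehicle A and zileuton C.

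Of the receptors, Igf1r was at 64.7, 69.5 and 57.5 CPM with vehicle and 64.0, 66.5 and 64.7 with zileuton, a log2 fold change of 0.03 (SE 0.08). Igf2r was at 46.7, 59.1 and 51.8 CPM with vehicle and 59.9, 55.6 and 47.7 with zileuton, a log2 fold change of 0.05 (SE 0.12). Both sets of groups overlapped.

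Among the binding proteins, Igfbp5 was at 335, 530 and 542 CPM in vehicle A, B and C and 575, 444 and 464 in zileuton A, B and C, with a log2 fold change of 0.08 (SE 0.19). Igfbp2 was at 82.6, 57.2 and 86.5 CPM with vehicle and 91.0, 62.3 and 35.3 with zileuton. Zileuton C, at a choroid plexus sum of 303 CPM, had the lowest value. Vehicle A had the lowest such sum, 197 CPM, but more Igfbp2 than vehicle B (sum 903) and zileuton B (sum 2112). The log2 fold change of -0.26 (SE 0.31) became 0.09 (SE 0.23) without vehicle A and zileuton C. The part of the choroid plexus was not tested. Igfbp7 was at 23.7, 22.4 and 29.4 CPM with vehicle and 30.2, 20.1 and 16.4 with zileuton, a log2 fold change of -0.18 (SE 0.22). Igfbp3 was at 17.3, 12.2 and 11.7 CPM and 16.2, 12.2 and 10.6, a log2 fold change of -0.08 (SE 0.20). Igfbp4 was at 76.2, 86.6 and 88.8 CPM with vehicle and at 83.4, 66.3 and 69.2 with zileuton. Of the 3 zileuton libraries, 2 lay below all vehicle libraries, and the log2 fold change was -0.20 (SE 0.10).

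**Figure D4:**
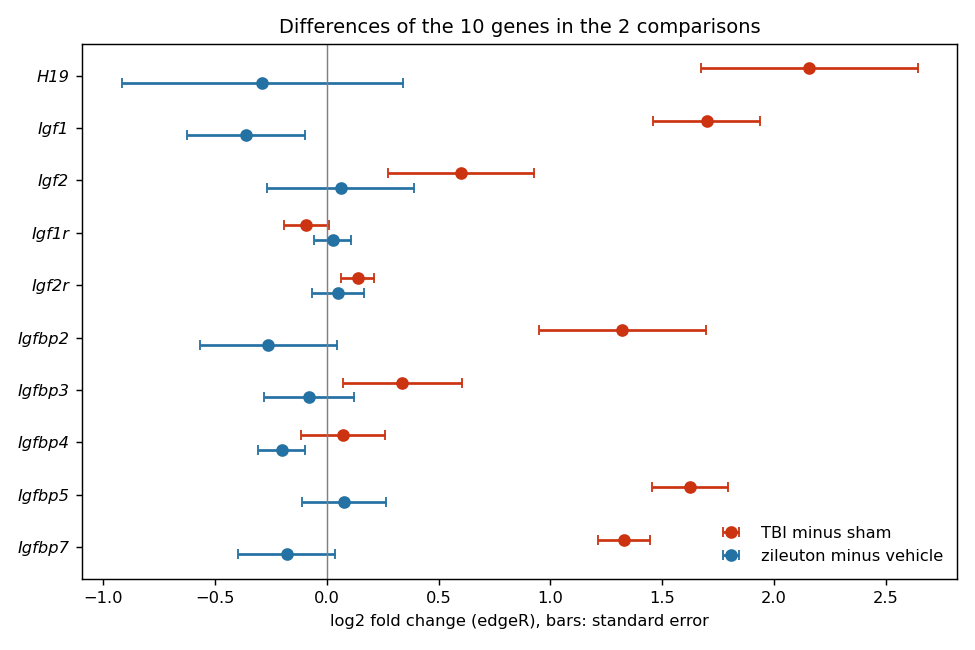
Log2 fold change of each gene, TBI minus sham in red and zileuton minus vehicle in blue, with bars of 1 standard error from edgeR. In TBI against sham 5 genes lie between 1.32 and 2.16, whereas with zileuton all 10 lie between -0.36 and 0.08.

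Marker sums and gene levels of single libraries are drawn side by side for H19, Igf1 and Igfbp2. The libraries with the most H19, TBI 1 and 3, also had the 2 highest fibroblast and meninges sums of the 12 libraries. Igfbp2 in TBI 3 was 213 CPM at a choroid plexus sum of 1809 CPM, the lowest sum of the TBI libraries of 2018.

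**Figure D5:**
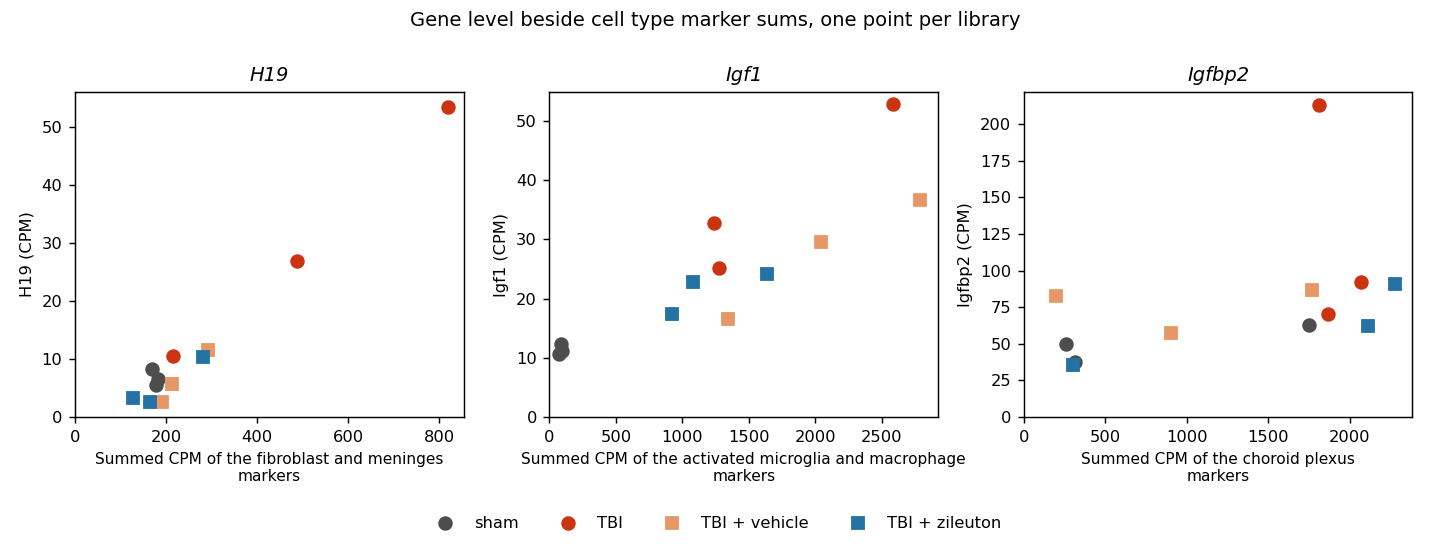
Level of H19, Igf1 and Igfbp2 in CPM against the summed CPM of fibroblast and meninges, activated microglia and macrophage, and choroid plexus markers, with 1 point per library of 4 groups (circles 2018, squares 2022). TBI 3 is at 820 and 53.6 CPM in the H19 panel and at 2582 and 52.7 in the Igf1 panel. Sham 2 and 3, vehicle A and zileuton C have choroid plexus sums of 197 to 316 CPM.

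The other genes of the IGF and insulin system were taken as a list of 22 by function. Of 19 tested in TBI against sham, 4 rose and 0 fell in edgeR's test, beside 16.8% of all genes higher and 11.2% lower, and the list's median log2 fold change was 0.17. Shc1, an adaptor between receptor tyrosine kinases and Ras, was at 11.2, 11.8 and 10.5 CPM in sham and 24.4, 19.1 and 23.8 in TBI (log2 fold change 1.01, SE 0.12, adjusted p = 0.000479). Igfbpl1, an IGFBP-like protein, was at 2.24, 0.973 and 2.02 CPM in sham and 4.61, 8.25 and 4.55 in TBI (log2 fold change 1.73, SE 0.36, edgeR adjusted p = 0.00734). Igf2bp2, which binds Igf2 and other messenger RNAs, was at 0.932, 0.865 and 1.60 CPM in sham and 2.42, 2.89 and 3.74 in TBI (log2 fold change 1.41, SE 0.31, edgeR adjusted p = 0.00992).

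Htra1, a secreted protease that cleaves IGF binding proteins, was at 138, 147 and 135 CPM in sham and 165, 164 and 215 in TBI (log2 fold change 0.37, SE 0.11, edgeR adjusted p = 0.0351). Its call was lost without sham 1, 2 or 3, although the log2 fold change was 0.35, 0.38 and 0.33, and without TBI 3 (0.23, adjusted p = 0.0586 in edgeR). It was also lost in the replicate block (0.36), with the trend of gene length removed (0.29) and in limma without a filter. Without sham 2 and 3 the log2 fold changes were 0.97 (SE 0.20) for Shc1, 1.34 (SE 0.45) for Igfbpl1, 1.66 (SE 0.41) for Igf2bp2 and 0.36 (SE 0.18) for Htra1. Pappa2, a protease of IGF binding proteins, was at 3.59 and 1.56 CPM on average (log2 fold change -1.21) and was not called in the test given here, but was called lower with DESeq2, without a filter and without sham 2. The insulin receptor Insr (log2 fold change -0.11) and the adaptors of both receptors, Irs1 (-0.08) and Irs2 (-0.21), were not called. With zileuton 0 of 16 tested genes of the list were called by edgeR and by DESeq2. Of these, 14 were above 0 and 2 below, the median log2 fold change was 0.14, and 2 had an unadjusted p under 0.05, Irs1 (12.4 and 16.2 CPM on average) and Igf2bp3 (1.09 and 1.70).

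The genes whose levels varied most like H19, Igf1 and Igf2 among libraries of the same group were found by correlating log2 CPM, centred on each group's mean, over 12 libraries and 16516 genes. For H19 they were Cnn1, a smooth muscle calponin (r = 0.971), Ckap4 (0.957), Mcrip1 (0.954), Qprt (0.948) and Crh (0.945). For Igf1 they were Gla (0.957), Ulbp1 (0.955), Tmem160 (0.951), Rps16-ps2 (0.949) and Rpl22 (0.946), and for Igf2 they were Prps2 (0.948), Dstn (0.918), Krcc1 (0.914), Cdkn1c (0.911) and Mettl23 (0.911). These are the 5 highest of many genes over few libraries that share depth and tissue composition, so they are a description. When the 5 highest were taken within 1 batch, 1 of 5 was shared for H19 with each batch (Qprt in 2018, Cnn1 in 2022) and 0 of 5 for Igf1 and for Igf2.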

How the data were processed

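RNA of brain tissue from 12 mice in 4 groups of 3 was analysed from 4 deposited tables. For the 2018 batch the authors deposited counts of reads per gene and FPKM. The tables the authors deposited for 2022 hold estimated counts, of which 13.7% were not whole and which were rounded for the count tests, and TPM. The submitters' processing notes name HISAT2, featureCounts, Subread, DESeq2 and the build GRCm39, and versions and counting options are not given in the sources used here. Every column was used.

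In R 4.3.3, edgeR 4.0.16 (TMM, filterByExpr, glmQLFit, glmQLFTest) was fitted within each batch over the whole table, and a gene was called at a Benjamini-Hochberg adjusted p under 0.05. The plan assumed counts in both batches. CPM use TMM-scaled totals. The SE is the log2 fold change divided by the square root of the F statistic. Counts of 0 were not imputed, and no sample was dropped. Alternatives were DESeq2 1.42.0 and limma 3.58.1 on log2(value + pseudocount), other scalings and filters, a gene length correction, a replicate block and leaving out libraries, and the scripts were tested on simulated counts.

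The 10 genes and the gene lists (other IGF and insulin system genes, imprinted genes, and markers of fibroblasts and meninges, choroid plexus, mural and endothelial cells, homeostatic and activated microglia, astrocytes, neurons, oligodendrocytes, red blood cells and embryonic genes) were chosen with earlier results of these data known. Named were the 10 genes, called genes of the IGF and imprinted lists, genes in counts of 5 or fewer, and the 5 most alike for H19, Igf1 and Igf2. Others were named after their values were seen (Gfap, Insr, Irs1, Irs2, Airn, Pappa2, Gnas, Tagln, Meg3, Hbb-y, Hba-x, Col1a1, Col1a2, Col3a1, Slc22a6, Slc6a13, Slc6a20a, Aldh1a2, Spp1, Ms4a7, Mrc1). Identifiers were matched to symbols through a gene name table for 34808 of 35697 in 2018 and 52081 of 55637 in 2022. Sequences are from RefSeq on GRCm38.p6 and neighbouring genes from GENCODE M21, a build other than that of the files. Figures were drawn with matplotlib 3.10.9.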

Additional observations from a re-analysis of the deposited data

How the results depend on the processing

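In TBI against sham, 5479 genes were called, 3713 to 6017 under other tools, scalings and filters, and 3848 to 4956 when a library was left out. Without sham 2 and 3, an alternative chosen after seeing the data that leaves 1 sham library against 3 and so has less power, 1542 genes were called, 2 of the 10 IGF axis genes and 1 of the other IGF genes. Of the 10 genes, 5 were called, 3 with limma on log2(FPKM + 1) without a filter, and 4 to 5 when a library was left out, and of the other IGF genes 3 to 4, against 4 with all libraries and 5 with DESeq2 and without a filter, where Pappa2 was called lower. The share of calls that were higher was 60%, and 71.5% with that limma fit. Library totals in place of TMM moved the median of all genes from 0.02 to 0.07.

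Igfbp2 was also not called with DESeq2, in the 3 limma fits or in the replicate block, and H19 not with limma without a filter. Of 168 fold changes of the 10 genes under alternatives, 161 moved by less than the spread between libraries and 0 called values changed sign, and with zileuton 168 of 170. Igf2 was under the FPKM limit of 0.5 in 2 limma fits.

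With zileuton 0 genes were called, 27 with DESeq2, 4 without a filter, and 4 and 3 with limma at pseudocounts of 1 and 0.1, none of them among the 10 genes, and 0 when any library was left out. Genes with an unadjusted p under 0.05 numbered 1186, but 1909 without zileuton A, 689 without zileuton B and 777 without zileuton C.

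Deviations from the group mean correlated at -0.02, -0.09 and -0.03 between libraries of the same number in 2018. In 2022 they correlated at -0.28, 0.06 and -0.28 between those of the same column number. Between different numbers the values ran from -0.10 to 0.13 in 2018 and from -0.07 to 0.31 in 2022. The numbers were not taken as pairs, but deviations from a mean of 3 libraries depend on one another, so these values cannot decide it. With the replicate block 4337 genes, 4 of the 10 genes and 3 other IGF genes were called in 2018, and 0 in 2022. The Igf2 values of 2018 rest on 62 to 150 counts, which sets their counting error.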

Other observations

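H19 and Igf2 belong to the imprinted genes, and 18 further genes of that kind were followed. In TBI against sham 16 could be tested, of which 1 rose and 2 fell in edgeR's test, beside 16.8% and 11.2% of all genes. Nnat, a small membrane protein of developing neurons, was at 96.7, 130 and 75.6 CPM in sham 1, 2 and 3 and 178, 212 and 164 in TBI 1, 2 and 3 (log2 fold change 0.87, SE 0.18, edgeR adjusted p = 0.00767). Peg3, a zinc finger protein, was at 328, 341 and 306 CPM in sham and 228, 251 and 212 in TBI (log2 fold change -0.50, SE 0.09, edgeR adjusted p = 0.00301). Rian, a noncoding RNA of the Dlk1-Meg3 domain, was at 561, 650 and 630 CPM in sham and 444, 449 and 424 in TBI (log2 fold change -0.48, SE 0.08, edgeR adjusted p = 0.00270), and was no longer called with the trend of gene length removed (-0.24). Without sham 2 and 3, which leaves 1 sham library, the log2 fold changes were 0.90 (SE 0.18) for Nnat, -0.54 (SE 0.14) for Peg3 and -0.39 (SE 0.12) for Rian. With zileuton 0 of 16 were called by edgeR, and 2 had an unadjusted p under 0.05, beside 0% and 6.83% of all genes.

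Igf2 differed between the batches. It had 62 to 150 counts and 1.30 to 3.05 CPM in the 6 libraries of 2018, and 2058 to 4721 counts and 71.7 to 168 CPM in those of 2022, although the total counts were lower in 2022. Mean CPM of the TBI groups of 2018 and 2022 were 58.2 and 63.9 for Igf1r, 48.4 and 52.5 for Igf2r, 501 and 469 for Igfbp5, 95.6 and 83.9 for Igfbp4, 13.5 and 13.7 for Igfbp3 and 36.9 and 27.6 for Igf1. They were 30.4 and 6.62 for H19, 125 and 75.4 for Igfbp2 and 51.3 and 25.2 for Igfbp7. Of the other genes of the lists, Gnas (76.5 and 1077 CPM) and Tagln (0.224 and 17.1) also stood far apart, so Igf2 was not alone. Meg3 differed in the other direction (1711 and 305 CPM). Gm49394, which overlaps Igf2 on the same strand, was listed at 0 counts in the 2022 libraries and had no entry among the gene identifiers of 2018. Batch and counting cannot be told apart here, and the cause was not tested.

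The embryonic globin Hbb-y had 70, 183 and 138 counts in sham 1, 2 and 3, 2, 6 and 0 in TBI 1, 2 and 3, and at most 1 in a library of 2022, and Hba-x had 14, 46 and 38 counts in sham and 0 in all other libraries. The cause was not tested.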
